A study of Mus musculus with 7 samples.

Results

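The core loop of the circadian clock was examined through 10 genes of the transcript table: Arntl (the table's symbol for Bmal1), Clock, their paralogs Arntl2 and Npas2, Per1, Per2, Per3, Cry1, Cry2 and Timeless. They were chosen by symbol out of 54309 listed genes, and each symbol matched 1 row. The samples were mouse L4-6 dorsal root ganglia, which hold the cell bodies of the sensory neurons of the hind limb. They came from male C57bl/6 mice of 6 to 8 weeks. All animals had a sciatic nerve injury 72 h before the ganglia were taken, and no uninjured group was analysed here. The groups were ZT20 (4 samples) and ZT8 (3 samples), where ZT is Zeitgeber time, in hours from lights on. A 72 h interval is a whole number of days, so each animal was dissected at the ZT of its injury, and these cannot be told apart. The dissociated cells were passed over a 15% albumin gradient to enrich neurons, and whether a sample pooled animals is not stated in the sources used here. Without such information the p-values measure only the spread between these samples.

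The mammalian clock is a transcriptional feedback loop. BMAL1 pairs with CLOCK, or with its paralog NPAS2, on E-box elements and drives the Per and Cry genes. PER and CRY proteins accumulate, enter the nucleus and repress that pair, while REV-ERB and ROR receptors act on the Bmal1 gene through a different element, the RORE, and PAR-bZIP factors such as DBP act through D-boxes. In most peripheral tissues Bmal1 transcript therefore peaks in the opposite part of the day to Dbp. Timeless is named after a fly clock gene. In mammals its protein is best known, with its partner TIPIN, for protecting DNA replication forks, and its part in the clock is debated.

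The promoters show which of these elements lie close to the start of each gene. RefSeq windows of 300 bases (250 before to 50 after the start, build GRCm38.p6) were matched by symbol for 9 of the 10 genes, all but Per2, some with several windows. The deposited table was made on another build, GRCm39 per the submitters' processing notes, so these windows serve as sequence only. The 4 below are those of the gene that passed the test, of Arntl, and of the Per genes that hold an E-box or D-boxes. Capitals mark the motif found: TAGGTCA or TGGGTCA (the RORE half-site) in Arntl, CACGTG (E-box) in Per1, and TTATGTAA, TTATATAA or TTACGTAA (D-box) in Per3 and Timeless. Both strands were searched.
Arntl, chr7:113207261-113207560, + strand: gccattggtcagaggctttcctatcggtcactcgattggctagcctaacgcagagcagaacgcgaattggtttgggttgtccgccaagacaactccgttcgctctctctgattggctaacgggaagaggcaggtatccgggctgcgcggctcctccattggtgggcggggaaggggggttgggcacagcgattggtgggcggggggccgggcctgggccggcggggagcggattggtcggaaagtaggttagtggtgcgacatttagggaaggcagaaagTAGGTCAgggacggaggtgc
Per1, chr11:69098699-69098998, + strand: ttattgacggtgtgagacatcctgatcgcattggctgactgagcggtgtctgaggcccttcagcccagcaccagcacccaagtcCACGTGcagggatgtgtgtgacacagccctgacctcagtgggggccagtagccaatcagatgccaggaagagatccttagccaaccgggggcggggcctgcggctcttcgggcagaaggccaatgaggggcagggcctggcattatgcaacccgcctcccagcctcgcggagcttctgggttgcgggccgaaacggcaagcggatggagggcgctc
Per3, chr4:151044616-151044915, - strand: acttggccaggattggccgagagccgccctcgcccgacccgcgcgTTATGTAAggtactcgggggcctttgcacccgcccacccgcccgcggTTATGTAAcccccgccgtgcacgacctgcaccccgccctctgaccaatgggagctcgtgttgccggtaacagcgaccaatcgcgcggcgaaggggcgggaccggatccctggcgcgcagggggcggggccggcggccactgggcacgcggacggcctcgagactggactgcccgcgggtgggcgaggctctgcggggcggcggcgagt
Timeless, chr10:128237816-128238115, + strand: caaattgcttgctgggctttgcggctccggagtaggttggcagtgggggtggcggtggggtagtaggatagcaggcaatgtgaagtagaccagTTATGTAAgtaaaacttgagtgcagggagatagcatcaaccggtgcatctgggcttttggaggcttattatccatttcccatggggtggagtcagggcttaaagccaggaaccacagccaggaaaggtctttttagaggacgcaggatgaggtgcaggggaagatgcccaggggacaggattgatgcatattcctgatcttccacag

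The Arntl window held TAGGTCA 31 bases after its start, in the second of 2 overlapping windows; the first held none of the motifs. The upstream Per1 window held CACGTG 166 bases before the start. Per3 held TTATGTAA 205 and again 158 bases before its start, and Timeless held it 157 bases before. Cry1, not printed, held CACGTG 60 bases before its start and the variant CACGTT, on the reverse strand, 79 bases before. Cry2 held that variant 166 bases before its start, also on the reverse strand. No searched motif lay in the windows of Clock, Arntl2 and Npas2. Of all 32851 RefSeq windows, 7.15% held CACGTG, 4.68% CACGTT, 1.59% a D-box and 6.45% an RORE half-site. A match describes the letters only.

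The libraries differed in ways that touch every value given here. The number of genes above 0 TPM (transcript abundance, a level per transcript length scaled to the same sum in each sample) was 24192 to 25238 at ZT20 and 18297 to 22973 at ZT8, lowest in ZT8 replicate 2. TPM keeps no sequencing depth, so the counting error of each value is unknown. Against the male label, 4 Y-linked genes together reached 63.6 and 33.1 TPM in ZT20 replicates 1 and 2 but 0.0162 and 0.00868 TPM in replicates 3 and 4, with 61.1 to 84.6 TPM at ZT8. Xist, which marks an inactive X chromosome, had 1.08, 2.21 and 2.30 TPM across ZT20 replicates 2 to 4 and 0.00466 TPM or less in the other 4 samples. Main results are therefore also given without ZT20 replicates 3 and 4. Markers of sensory neurons were present as labelled: all 15 listed were above a mean of 1 TPM, with sums of 19100 to 23700 TPM at ZT20 and 14600 to 22100 TPM at ZT8. Of these 15, 5 passed, all higher at ZT20, against 12.8% of all tested genes. The 8 satellite glia markers summed to 7500 to 9170 TPM at ZT20 and 12800 to 15500 TPM at ZT8, without overlap, and 3 of the 8 passed, lower at ZT20, against 3.61% of all tested genes. Most of that sum was Apoe (6260 to 7610 TPM and 10600 to 13600 TPM), and 4 of the 8 (Cdh19, Kcnj10, Glul and Sox10) overlapped between the groups. The 8 macrophage markers summed to 115 to 157 TPM and 160 to 370 TPM, and the 5 plasma cell markers to 267 to 485 TPM and 496 to 933 TPM, likewise without overlap. As single genes, only C1qa and C1qb of the 8 macrophage markers and Jchain and Mzb1 of the 5 plasma cell markers did not overlap. Over all tested genes 1291 of 14800 did not overlap in that direction, lower at ZT20. The sums of the Schwann cell (1130 to 1280 and 910 to 1310 TPM), fibroblast (77.7 to 108 and 84 to 197 TPM) and endothelial lists (3.03 to 5.03 and 1.16 to 4.16 TPM) overlapped. The part of these other cells in the results was not tested. In bulk samples, fewer cells of a type and less RNA per cell cannot be told apart. Library names follow a number scheme at ZT20 and a letter scheme at ZT8, so anything these schemes stand for cannot be told apart from the group.

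The clock transcripts spanned a wide range of levels, and their order was similar at both times. At ZT20 the mean level fell from Cry2 (66.1 TPM) through Timeless (42.8), Cry1 (10.4), Clock (7.84), Per1 (3.86), Arntl (2.71), Arntl2 (2.51), Per2 (2.13) and Per3 (2.07) to Npas2 (0.667 TPM). At ZT8 it fell from Cry2 (42.7 TPM) through Timeless (19.0), Cry1 (7.74), Clock (3.74), Per1 (3.50), Per3 (1.44), Arntl (1.29), Arntl2 (0.826) and Per2 (0.719) to Npas2 (0.158 TPM). Neighbours in this order whose ranges did not overlap at ZT20 were Timeless above Cry1, Clock above Per1 and Per3 above Npas2. At ZT8 they were Timeless above Cry1 and Per1 above Per3. Cry2 was above Timeless in 4 of 4 samples at ZT20 and in 2 of 3 at ZT8, with overlapping ranges in each group. The mean over all samples exceeded that of 78.7% of tested genes for Cry2 and 69.5% for Timeless, against 34.7% for Clock and 13.6% for Arntl. The shares were 24.4% for Per1, 10.6% for Per3 and 7.71% for Per2, so activators and repressors were both found among the scarcer transcripts.

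**Figure D1:**
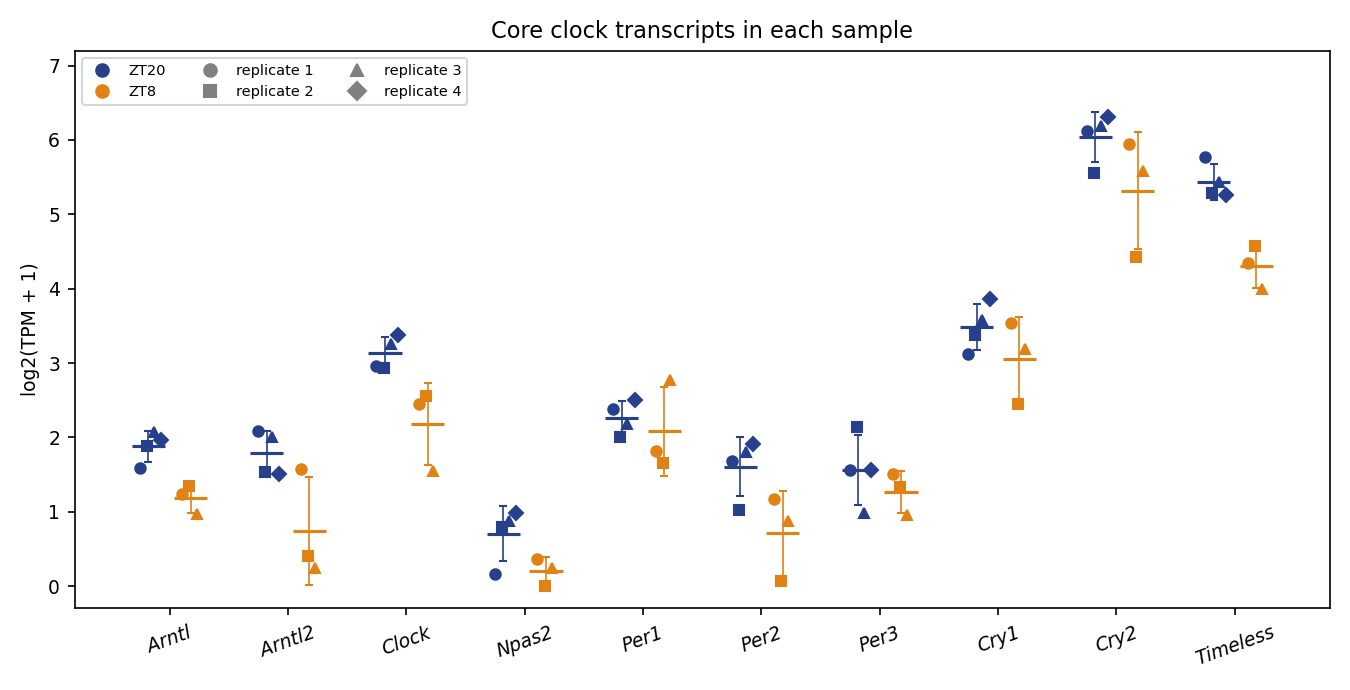
Level of each core clock transcript, as log2(TPM + 1), in 4 ZT20 and 3 ZT8 samples; each point is 1 sample (shape gives the replicate), the thick line is the group mean on this scale and the bar its SD. The groups separate in Arntl, Clock and Timeless and overlap in the other 7 genes.

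Values were tested as log2(TPM + 1) with limma over all 14800 genes whose mean reached 1 TPM, and p-values were adjusted by Benjamini-Hochberg over all of them. Of the 10 clock genes 9 reached that level; Npas2 did not. Timeless passed an adjusted p of 0.05, higher at ZT20, and the other 8 did not pass. Over all tested genes 16.4% passed, 12.8% higher at ZT20, so 1 of 9 is no larger a share than the background. An unadjusted p under 0.05 was reached by 5 of the 9, against 34.6% of all tested genes. The difference was positive for all 9, with a median of 0.72 on the log2 scale, against 9821 of all 14800 and a median of 0.23. The scaling moved these values and turned the sign of Per1 and Per3. Under median-ratio scaling the median of all genes was 0.019 and that of the 9 was 0.53, with 8 positive. Under quantile normalization the medians were 0.0046 and 0.43, with 7 positive. Again 7 were positive after removal of the trend of every sample with gene length and GC content (length-GC adjustment), which gave medians of −0.0079 and 0.29. Of the called genes 78.1% were higher at ZT20 as deposited, 46.5% under median-ratio scaling, 55.7% under quantile normalization and 39.8% after the length-GC adjustment.

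Timeless was higher at ZT20 than at ZT8 by more than the spread between samples. Levels were 53.8, 38.0, 42.2 and 37.2 TPM across ZT20 replicates 1 to 4, and 19.3, 22.8 and 14.9 TPM across the ZT8 replicates. The lowest ZT20 library was 1.64 times the highest ZT8 library. The ZT20 mean of 42.8 ± 7.63 TPM (SD, n = 4) was 2.25 times the ZT8 mean of 19.0 ± 3.93 TPM (SD, n = 3). The fitted log2 difference was 1.14 (95% interval 0.70 to 1.57, limma adjusted p = 0.00949). Leaving out any 1 library kept it between 0.98 and 1.27, with limma adjusted p-values from 0.00619 to 0.0401. Without ZT20 replicates 3 and 4 the difference was 1.23, the groups still did not overlap, and the limma adjusted p was 0.140; that fit called 0 of 14687 genes, although 2378 had an unadjusted p under 0.05. After the length-GC adjustment the difference was 0.64 (limma adjusted p = 0.122), and the groups overlapped. With the neuronal minus non-neuronal marker score as a covariate it was 1.27 (limma adjusted p = 0.128), in a fit that called 36 genes. Exons of Timeless overlap those of Gm26847, a noncoding gene on the opposite strand that was not analysed here, and whether reads were counted by strand is not given in the sources used here.

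Neither the replication partner Tipin nor any listed marker of dividing cells passed the test. Tipin was at 20.3, 18.9, 20.7 and 18 TPM at ZT20 and at 23.8, 14 and 23.6 TPM at ZT8, a log2 difference of −0.031 (95% interval −0.50 to 0.44, limma adjusted p = 0.927). The ZT20 values of Tipin lay inside the ZT8 range. Of 10 listed markers of proliferating cells 9 were tested and 0 passed by limma, against 16.4% of all tested genes. An unadjusted p under 0.05 was reached by 3 of the 9 markers, against 34.6% of all tested genes. The summed level of the 10 markers was 87.8 to 132 TPM at ZT20 and 101 to 110 TPM at ZT8. Top2a, which untangles DNA in dividing cells, was at 8.18, 3.21, 2.59 and 3.82 TPM at ZT20 and at 2.28, 0.379 and 0.968 TPM at ZT8. Its groups lay in the same order as those of Timeless without overlap, with a log2 difference of 1.30 (limma adjusted p = 0.0621). ZT20 replicate 1, the library highest in Timeless, was also highest in Top2a and in the division marker Mki67 (2.32 TPM there, 0.250 to 1.64 TPM elsewhere). It was likewise highest in the listed markers Ccnb1, Cdk1, Mcm3, Mcm5, Mcm6 and Clspn, but not in Pcna or Mcm2. Pcna, the sliding clamp of replication, was at 49.6 to 58.4 TPM at ZT20 and 61.9 to 70.8 TPM at ZT8, the opposite order to Timeless (limma adjusted p = 0.107). Mcm6, a subunit of the replicative helicase, had means of 14.2 TPM at ZT20 and 10.2 TPM at ZT8 with overlapping ranges, a log2 difference of 0.46 (limma adjusted p = 0.131). The log2 difference was 0.48 for Mki67, 0.22 for Mcm3, 0.045 for Cdk1, 0.015 for Ccnb1, 0.011 for Mcm5 and −0.095 for Mcm2. Groups overlapped in each of these genes. The 9 tested markers had a median of 0.045 with 7 positive, against 0.23 and 9821 of 14800 over all tested genes.

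The activators Arntl and Clock had group ranges that did not overlap, higher at ZT20, but did not pass the adjusted threshold. With Timeless, 3 of the 9 tested genes had groups that did not overlap, all higher at ZT20, against 33.2% of all tested genes in either direction and 24.5% in that direction. Arntl had 2.02, 2.71, 3.19 and 2.91 TPM across ZT20 replicates 1 to 4 and 1.36, 1.55 and 0.953 TPM in the ZT8 samples. Every ZT20 sample was above every ZT8 sample, the nearest being ZT20 replicate 1 and ZT8 replicate 2. Its log2 difference was 0.70 (95% interval 0.14 to 1.25, limma adjusted p = 0.0809). Clock was at 6.78, 6.63, 8.59 and 9.35 TPM at ZT20 and at 4.44, 4.87 and 1.92 TPM at ZT8. ZT8 replicate 3 was the lowest library in both genes. The log2 difference of Clock was 0.95 (95% interval 0.30 to 1.6, limma adjusted p = 0.0545).

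Both activators crossed the threshold when the library with fewest detected genes was set aside, both shrank after the length-GC adjustment, and both had a larger difference, without passing, with the marker score covariate. Without ZT8 replicate 2 the log2 difference was 0.78 for Arntl (limma adjusted p = 0.0463) and 1.14 for Clock (limma adjusted p = 0.0292). Without ZT8 replicate 3, the lowest in both, it was 0.59 and 0.63 (limma adjusted p = 0.168 and 0.106). Without ZT20 replicates 3 and 4 it was 0.56 and 0.76 (limma adjusted p = 0.500 and 0.398), with groups still apart. After the length-GC adjustment it was 0.36 and 0.29 (limma adjusted p = 0.370 and 0.492), and the groups overlapped in both. Under quantile normalization it was 0.43 and 0.63 (limma adjusted p = 0.263 and 0.159), and the groups of Arntl overlapped. With the marker score covariate it was 1.01 and 1.68 (limma adjusted p = 0.260 and 0.0906). The longest annotated Clock transcript has 9744 nt and that of Arntl 3995 nt. The antisense gene Gm45355, which overlaps Arntl exons, was listed at 0. The pseudogene Ube2n-ps1, which lies within Clock without touching its exons, was at 243 to 270 TPM at ZT20 and 277 to 353 TPM at ZT8, the reverse order to Clock.

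The paralogs Arntl2 and Npas2 varied widely within ZT8, where their SD exceeded or nearly equalled their mean. Arntl2, which can stand in for Bmal1 as a partner of CLOCK, was at 3.26, 1.91, 3.02 and 1.85 TPM at ZT20 and at 1.97, 0.331 and 0.181 TPM at ZT8. ZT8 replicate 1 lay within the ZT20 range and the other ZT8 samples far below it. The log2 difference was 1.05 (95% interval 0.20 to 1.90, limma adjusted p = 0.0855). Without ZT8 replicate 1 it was 1.46 (limma adjusted p = 0.0261), and without ZT20 replicates 3 and 4 it was 1.08 (limma adjusted p = 0.374). The Arntl2 difference was hardly smaller once length and GC were accounted for, at 0.92 (limma adjusted p = 0.143). Npas2, the CLOCK paralog known from forebrain, was at 0.122, 0.737, 0.833 and 0.977 TPM at ZT20 and at 0.285, 0 and 0.190 TPM at ZT8. ZT20 replicate 1 fell among the ZT8 samples. In the fit without a filter its log2 difference was 0.50 (95% interval −0.0044 to 1.01, limma adjusted p = 0.252).

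**Figure D2:**
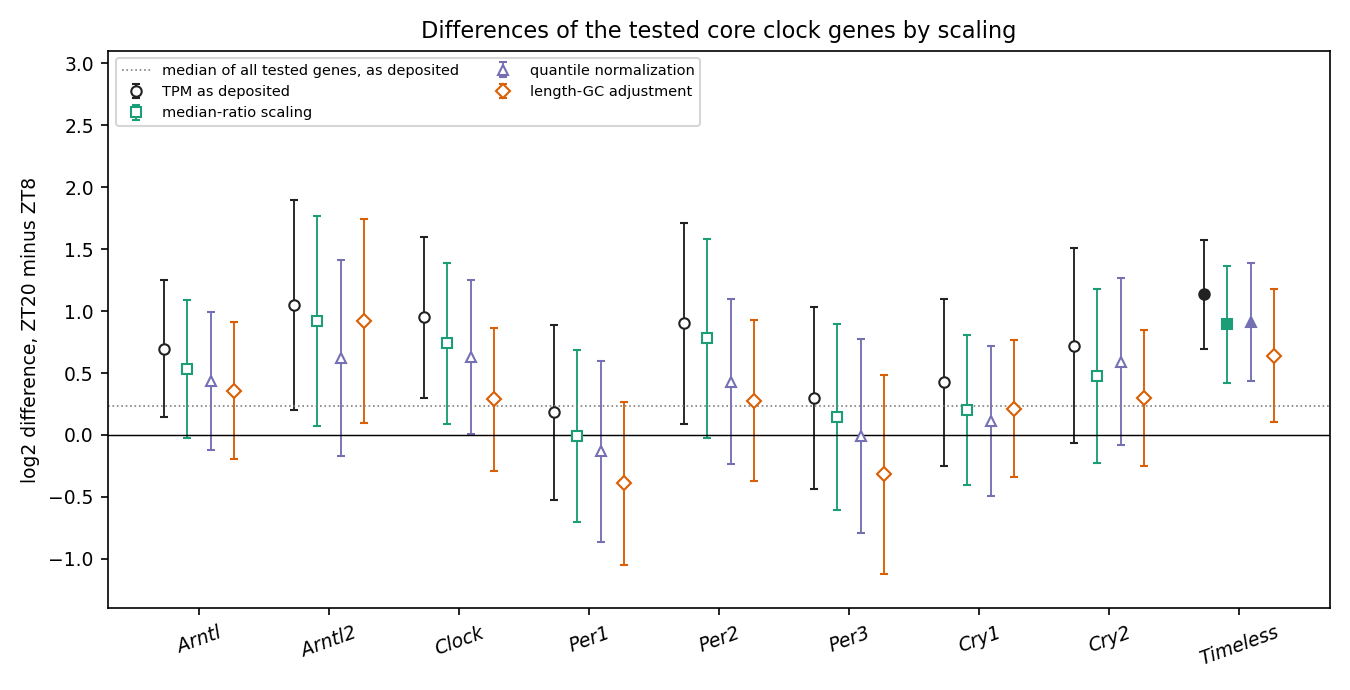
Log2 difference (ZT20 minus ZT8) of the 9 tested clock genes with 95% intervals, from limma on TPM as deposited and under 3 other scalings; filled symbols have an adjusted p under 0.05, and the dotted line is the median of all tested genes as deposited, 0.23. Timeless is filled in all but the length-GC adjustment, and the estimates of Per1 and Per3 change sign.

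The Per genes encode the rate-limiting part of the repressor complex. All 3 had positive differences as deposited, against 9821 of all 14800 tested genes. By limma 0 of the 3 passed, against 16.4% of all tested genes. Of the 3, 1 (Per2) had an unadjusted p under 0.05, against 34.6% of all tested genes. Whether the Per genes differed from each other was not tested. Per1, the member that also responds quickly to hormones and activity, was at 4.21, 3.0, 3.53 and 4.68 TPM at ZT20 and at 2.52, 2.16 and 5.83 TPM at ZT8. ZT8 replicate 3 was the highest of all 7 samples and ZT8 replicate 2 the lowest, so ZT8 enclosed ZT20. The log2 difference was 0.18 (95% interval −0.52 to 0.89, limma adjusted p = 0.700). Its sign was negative under median-ratio scaling (−0.0086), quantile normalization (−0.13), the length-GC adjustment (−0.39) and without ZT8 replicate 2 (−0.026). With the marker score covariate the difference was −0.50 (limma adjusted p = 0.617). Without ZT8 replicate 3 it was 0.53 (limma adjusted p = 0.190), and the groups did not overlap, higher at ZT20. Without ZT20 replicates 3 and 4 it was 0.11 (limma adjusted p = 0.913).

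Per2, a central repressor, was at 2.22, 1.04, 2.50 and 2.77 TPM at ZT20 and at 1.26, 0.0498 and 0.844 TPM at ZT8. The groups met in ZT20 replicate 2, which was under ZT8 replicate 1, and ZT8 replicate 2 was close to 0. The log2 difference was 0.90 (95% interval 0.086 to 1.71, limma adjusted p = 0.114), and 0.28 after the length-GC adjustment (limma adjusted p = 0.557). Without ZT8 replicate 2 the difference was 0.58 (limma adjusted p = 0.203). Without ZT20 replicates 3 and 4 it was 0.65 (limma adjusted p = 0.556).

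Per3, the family member least needed for rhythm, was at 1.94, 3.41, 0.983 and 1.96 TPM at ZT20 and at 1.85, 1.51 and 0.943 TPM at ZT8. ZT8 replicates 1 and 2 lay within the ZT20 range, and ZT8 replicate 3 just under it. The log2 difference was 0.30 (95% interval −0.44 to 1.03, limma adjusted p = 0.539), and its sign was negative under quantile normalization (−0.0079) and by the length-GC adjustment (−0.32). With 1 library left out the difference ran from 0.10 (without ZT20 replicate 2) to 0.49 (without ZT20 replicate 3), with 0.14 without ZT8 replicate 3, and 0 of these fits called it. Without ZT20 replicates 3 and 4 it was 0.58 (limma adjusted p = 0.511). Per3 lies within Camta1 on the same strand without exon overlap, and Camta1 was at 86.4 to 147 TPM at ZT20 and 67.8 to 101 TPM at ZT8.

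The Cry genes, which encode the repressors that bind CLOCK and BMAL1, differed from each other more in level than between times. Cry1 was at 7.73, 9.38, 10.9 and 13.6 TPM at ZT20 and at 10.6, 4.45 and 8.15 TPM at ZT8, with ZT8 replicates 1 and 3 inside the ZT20 range. The log2 difference was 0.42 (95% interval −0.25 to 1.10, limma adjusted p = 0.334). Cry2 was at 68.3, 46.0, 71.8 and 78.3 TPM at ZT20 and at 60.6, 20.6 and 46.9 TPM at ZT8. Its log2 difference was 0.72 (95% interval −0.064 to 1.51, limma adjusted p = 0.174), and the ranges met between ZT20 replicate 2 and ZT8 replicates 1 and 3. ZT8 replicate 2 was lowest in both; without it the differences were 0.12 for Cry1 and 0.28 for Cry2 (limma adjusted p = 0.753 and 0.408). Without ZT8 replicate 1 they were 0.66 and 1.04 (limma adjusted p = 0.154 and 0.0749), and after the length-GC adjustment 0.21 and 0.30 (limma adjusted p = 0.597 and 0.457). Without ZT20 replicates 3 and 4 they were 0.19 and 0.52 (limma adjusted p = 0.826 and 0.601). The opposite-strand noncoding gene D930015M05Rik, which overlaps Cry2 exons, had a mean of 0.119 TPM. Cry2 exceeded Cry1 in all 7 samples, by 1.99 to 2.99 on the log2 scale.

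As deposited, the lowest sample of each of the 10 genes was a ZT8 library. ZT8 replicate 2 was the lowest sample for 5 genes (Npas2, Per1, Per2, Cry1 and Cry2) and ZT8 replicate 3 for the other 5 (Arntl, Clock, Arntl2, Per3 and Timeless). ZT8 replicate 1 was lowest for 0. Among all tested genes with 1 lowest sample, that sample was ZT8 replicate 2 for 40.9%, ZT8 replicate 3 for 19.1% and ZT8 replicate 1 for 10.6%. The highest sample was ZT20 replicate 4 for 5 genes and ZT8 replicate 3 for 1, Per1. Arntl2, Npas2 and Per2 were under 1 TPM in both of these ZT8 libraries. After the length-GC adjustment the lowest sample of Npas2 was ZT20 replicate 1, and that of Per1 and Per3 was ZT20 replicate 3.

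**Figure D3:**
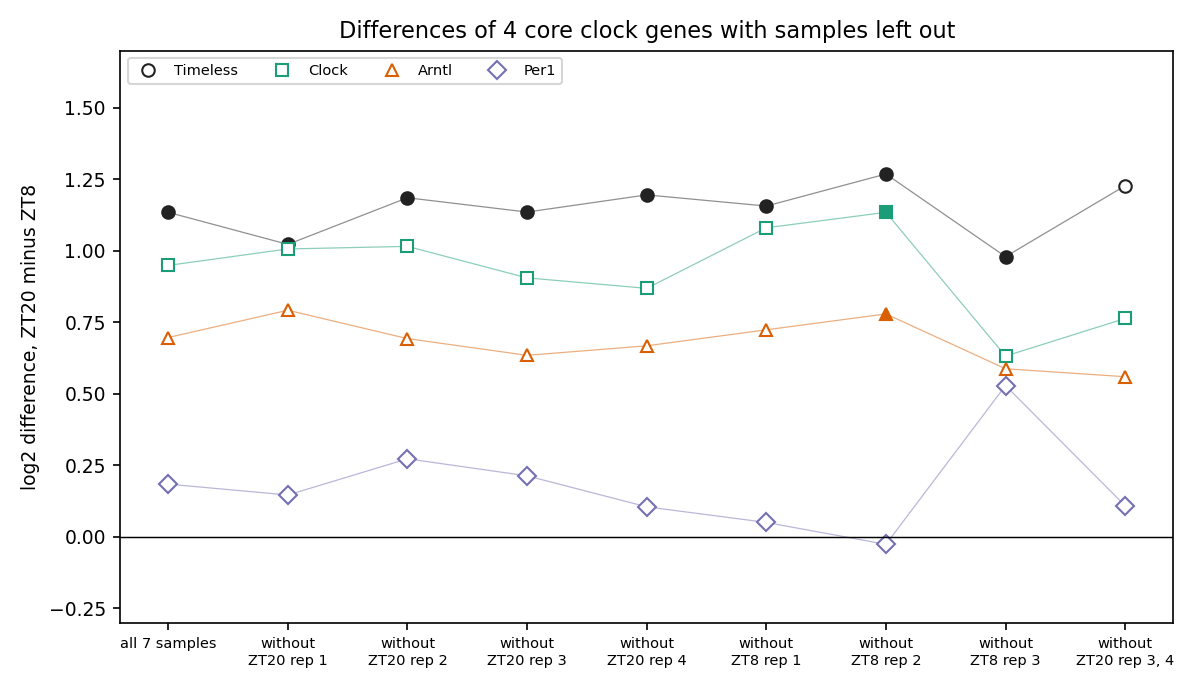
Log2 difference (ZT20 minus ZT8) of Timeless, Clock, Arntl and Per1 over all 7 samples, with each sample left out in turn, and without ZT20 replicates 3 and 4; filled symbols have a limma adjusted p under 0.05 and lines join 1 gene. Timeless stays between 0.98 and 1.27, Clock and Arntl are filled only without ZT8 replicate 2, and Per1 lies between −0.026 and 0.53.

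Ratios of 2 clock genes within a sample set the activators against the repressors; a common scaling factor of a sample cancels in them, apart from the pseudocount of 1 TPM, while a trend with gene length does not. All 9 ratios examined overlapped between the groups, and no test was made on them because the genes were chosen with earlier results known. The log2 ratio of Arntl to Per1 took the values −0.79, −0.11, −0.11 and −0.54 across the ZT20 replicates and −0.58, −0.31 and −1.81 across the ZT8 replicates. ZT8 replicates 1 and 2 lay among the ZT20 samples, and replicate 3 lay far below. The ratio of Clock to Per1 was 0.58 to 1.08 at ZT20 and 0.63, 0.89 and −1.23 at ZT8, again with replicate 3 apart. For Arntl to Per2 the ZT20 mean was 0.27 ± 0.42 (SD, n = 4) and the ZT8 mean 0.47 ± 0.70 (SD, n = 3). For Clock to Per2 the ZT20 mean was 1.52 ± 0.27 (SD, n = 4) and the ZT8 mean 1.47 ± 0.93 (SD, n = 3). The ratio of Arntl to Per3 was −0.25 to 1.08 at ZT20 and −0.27 to 0.019 at ZT8. The ratio of Clock to Per3 was 0.79 to 2.27 at ZT20 and 0.59 to 1.22 at ZT8, with means of 1.57 and 0.91. The ZT20 minus ZT8 difference of each of the 9 ratios moved by over 1.5 times with some single library. Over all samples it was 0.51 for Arntl to Per1, 0.76 for Clock to Per1 and 0.45 for Clock to Npas2; without ZT8 replicate 3 it was 0.059, 0.10 and 0.11, and without ZT8 replicate 2 it was 0.81, 1.16 and 0.74. For Arntl to Per3 and Clock to Per3 it was 0.40 and 0.65, and without ZT20 replicate 3 it was 0.15 and 0.42. The sign for Arntl to Per2 (−0.20 over all samples) turned without ZT8 replicate 2 (0.20); it was −0.41 without ZT8 replicate 1, −0.40 without ZT8 replicate 3 or ZT20 replicate 2, −0.081 without ZT20 replicate 1 and −0.13 without ZT20 replicate 4. For Clock to Per2 the difference was 0.050, with 0.56 without ZT8 replicate 2, −0.35 without ZT8 replicate 3 and every other value between −0.076 and 0.13. For Cry1 to Cry2 it was −0.30, with −0.15 without ZT20 replicate 1 and −0.16 without ZT8 replicate 2. For Arntl to Arntl2 it was −0.35, with −0.15 without ZT20 replicate 1 and −0.74, −0.10 and −0.21 without ZT8 replicates 1, 2 and 3 in turn. The length-GC adjustment gave 0.082 for Arntl to Per2 and 0.68 instead of 0.40 for Arntl to Per3. Ratios with a scarce gene depended on the pseudocount. With 0.1 TPM the difference was −0.84 for Arntl to Per2, −0.73 for Clock to Per2, −0.42 for Clock to Npas2 and −0.98 for Arntl to Arntl2.

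**Figure D4:**
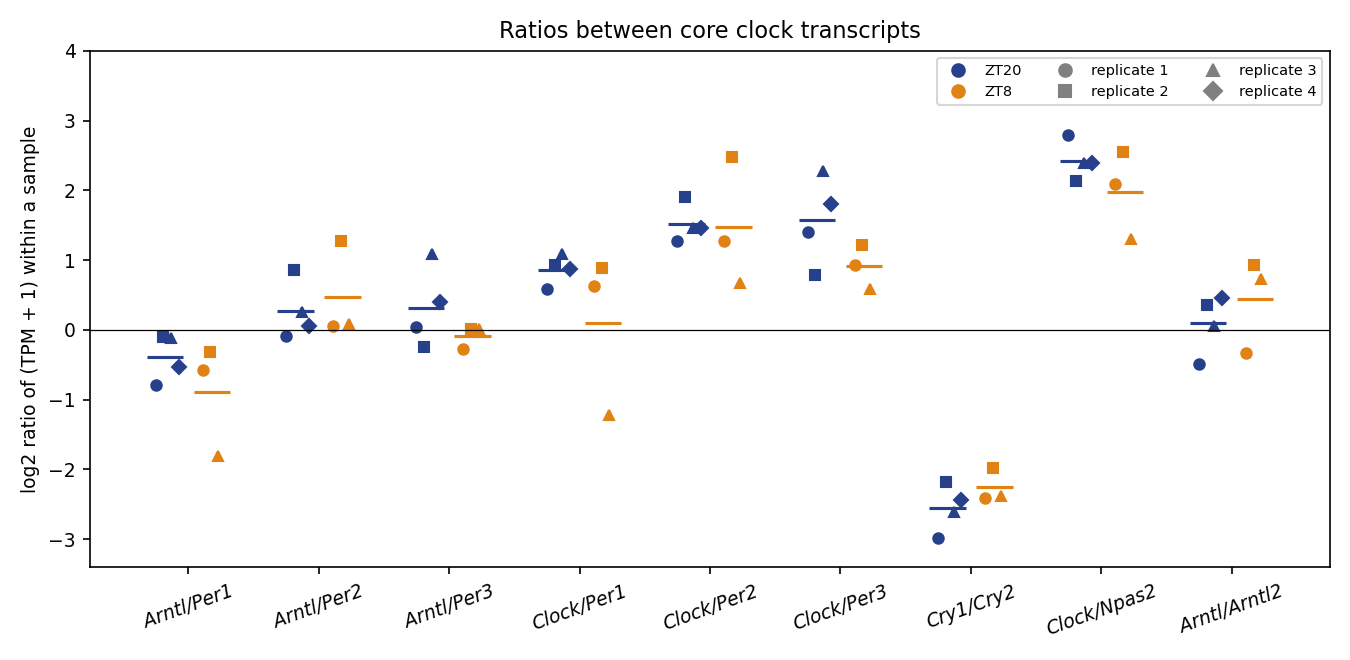
Log2 ratio of (TPM + 1) of 2 clock genes within each of 4 ZT20 and 3 ZT8 samples; points are samples (shape gives the replicate) and lines are group means. The groups overlap in all 9 ratios, and ZT8 replicate 3 is the lowest point in Arntl/Per1 (−1.81) and Clock/Per1 (−1.23).

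The other genes of the clock pathway were listed as 22 symbols, 20 of them tested: nuclear receptors, D-box factors, E-box repressors, and the kinases and ligases that set the period. By limma 1 passed higher at ZT20 and 1 lower, against backgrounds of 12.8% and 3.61%, and 7 of the 20 had an unadjusted p under 0.05, against 34.6% of all tested genes. The median log2 difference was 0.38, with 16 of 20 positive, against a median of 0.23 and 9821 of 14800 positive over all tested genes. Dbp, an output factor driven by CLOCK and BMAL1 through E-boxes, was at 0.624, 4.88, 2.61 and 2.0 TPM at ZT20 and at 9.43, 19.8 and 12.1 TPM at ZT8. It was lower at ZT20 without overlap, with a log2 difference of −2.15 (95% interval −3.14 to −1.17, limma adjusted p = 0.0154). Its difference was −2.26 after the length-GC adjustment (limma adjusted p = 0.0277), −1.66 with the marker score covariate (limma adjusted p = 0.307), −2.12 without ZT20 replicate 4 (limma adjusted p = 0.0503) and −2.20 without ZT20 replicates 3 and 4 (limma adjusted p = 0.178). In the fit without a filter its limma adjusted p was 0.0514. Bhlhe41, a repressor that competes for E-boxes, was at 23.8, 47.3, 24.3 and 25.5 TPM at ZT20 and at 4.93, 11.8 and 4.95 TPM at ZT8, a log2 difference of 1.97 (limma adjusted p = 0.0101). That call was lost after the length-GC adjustment (1.39, limma adjusted p = 0.0555), with the marker score covariate (2.52, limma adjusted p = 0.0934) and without ZT20 replicates 3 and 4 (2.17, limma adjusted p = 0.129). Nr1d1, a REV-ERB receptor that represses Arntl, was at 4.94, 4.0, 5.83 and 5.16 TPM at ZT20 and at 13.5, 3.96 and 13.4 TPM at ZT8. Its ZT8 replicate 2 fell below the ZT20 samples; over all samples the log2 difference was −0.77 (limma adjusted p = 0.187) and without that library −1.28 (limma adjusted p = 0.00536). Without ZT8 replicate 1 or 3 it was −0.51 in each case (limma adjusted p = 0.398 in each). Nr1d2, the other REV-ERB receptor listed, had means of 13.0 TPM at ZT20 and 12.8 TPM at ZT8. Its log2 difference was 0.029 (limma adjusted p = 0.929).

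The profile of Arntl over the 7 samples was closest to those of Lrrc75b, Gm37110 and Nek9. Likeness was the root mean square difference of log2(TPM + 1) after each gene was centred on its mean, and it was 0.051, 0.065 and 0.082 for these genes against a median of 0.46 over all tested genes. Lrrc75b was at 16.2 to 23.8 TPM at ZT20 and 9.72 to 12.7 TPM at ZT8, with the highest sample ZT20 replicate 3 and the lowest ZT8 replicate 3, as for Arntl. Within 0.1 of Arntl lay 12 genes.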

How the data were processed

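RNA was sequenced from 7 samples, grouped by title into ZT20 (n = 4) and ZT8 (n = 3). The authors deposited TPM, with 1 column per sample. The submitters' processing notes name FastQC 0.11.9, Trim Galore 0.6.6, Salmon 1.6.0, DESeq2 1.34.0 and the build GRCm39 without giving their roles; the annotation release is not given in the sources used here. TPM has no depth, and a rise in abundant genes lowers all others.

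Values were analysed as log2(TPM + 1), which understates the change of low genes: with a pseudocount of 0.1 the log2 difference was 1.87 instead of 0.90 for Per2, 2.01 instead of 1.05 for Arntl2 and 1.03 instead of 0.70 for Arntl, and no clock gene changed its call. Genes whose mean reached 1 TPM (14800) were fitted with limma 3.58.1 (intensity trend, R 4.3.3) over all 7 samples without covariates. The test was two-sided, with Benjamini-Hochberg adjustment over all tested genes. The procedure was also run on simulated data with independent normal errors, which hold no shift shared by the genes of a library. That run therefore says nothing on such shifts in these samples. Differences are ZT20 minus ZT8. Length and GC content of the longest transcript came from GENCODE M21 by identifier (14745 of the tested genes, 99.6%) and were removed by loess (span 0.3). Overlaps between genes also came from GENCODE M21.

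The members, lists and tests were chosen with earlier results of these data known. Named were all 10 members, Dbp, Nr1d1, any other listed clock gene that passed, Tipin, the proliferation list, and the 3 genes most like Arntl. Nr1d2 was added beside Nr1d1 after its values were seen. Top2a, Mki67, Pcna and Mcm6 were singled out from their list after the values were seen. Camta1 and Ube2n-ps1 were named because they overlap members. Alternatives changed the pseudocount, filter, scaling, covariate, block, trend, weights or samples. Tables and figures used pandas 2.3.3 and matplotlib 3.10.9.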

Additional observations from a re-analysis of the deposited data

Results flagged for a closer look

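Among 23 values of clock genes and ratios screened within ZT20, 1 had a sample far from the other 3, and chance gives about 1.15. That gene was Bhlhe41: ZT20 replicate 2 had 47.3 TPM, the other ZT20 libraries 23.8 to 25.5 TPM, and the empty stretch between them made up 0.928 of the range.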

How the results depend on the processing

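The number of genes called was 2433. It was 1178 without a filter, 1363 after the length-GC adjustment, 1174 with the replicate block, 36 with the marker score covariate and 3899 with array weights. Over the fits that left out 1 library it ran from 723 to 3047, lowest without ZT20 replicate 3, with 855 without ZT20 replicate 4 and 1132 without ZT20 replicate 1. It was 0 without ZT20 replicates 3 and 4 and 0 without ZT20 replicates 2, 3 and 4 (limma; 2378 and 1155 genes had an unadjusted p under 0.05), where the lone ZT20 sample is assumed to vary like the others. The number of core clock genes called was 1, and 0 with the length-GC adjustment, the marker score covariate, and in both of those reduced sample sets (2, 3, 1 and 1 had an unadjusted p under 0.05). It was 2 without the intensity trend (Arntl added), 3 with array weights (Arntl and Clock added) and 1 to 3 with 1 library left out. Of the other clock genes 2 were called, 1 without a filter and 1 after the length-GC adjustment, 6 with array weights, 1 to 5 with 1 library left out, and 0 with the marker score covariate and in both reduced sample sets (3, 3 and 2 had an unadjusted p under 0.05). The sign of Per1 turned under median-ratio scaling (−0.0086), quantile normalization (−0.13), the length-GC adjustment (−0.39), the marker score covariate (−0.50) and without ZT8 replicate 2 (−0.026; leaving out 1 library gave −0.026 to 0.53), and that of Per3 under quantile normalization (−0.0079) and by the length-GC adjustment (−0.32). With a pseudocount of 0.1 the ZT20 minus ZT8 difference of the log2 ratio was −0.84 for Arntl to Per2 (−0.20 with 1), −0.73 for Clock to Per2 (0.050), −0.42 for Clock to Npas2 (0.45) and −0.98 for Arntl to Arntl2 (−0.35). Leaving out 1 library and adjusting for length and GC were alternatives chosen for the ratios after seeing the data; with length and GC adjusted the difference was −0.083 instead of −0.30 for Cry1 to Cry2 and 0.20 for Clock to Npas2. The replicate numbers are shared by the groups but not stated to pair animals, and deviations of same-numbered samples correlated at −0.014, 0.15 and 0.083 across genes; with the replicate block Timeless differed by 1.2 (limma adjusted p = 0.0309) and no member, Dbp or Bhlhe41 changed its call. For each change the cause was not tested.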
